A study of Setaria viridis with 11 samples.

Results

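In the leaves of heat-stressed *Setaria viridis*, a transcript of the auxin-conjugate hydrolase IAR3 (Si001442m) rose 4.58-fold. The auxin-response transcripts IAA31 and PIF3 fell to 11.9% and 35.9% of their control levels. A second transcript that the study names IAR3 (Si001453m) had more counts than Si001442m in every plant. Its level was not called changed (log2 fold change -0.0022). IAA31, PIF3 and Si001442m, the members here, are 3 of the 40599 transcripts listed in the count tables. They were taken by identifier, with the names the study gives them: IAA31 (Si003010m), PIF3 (Si035110m) and IAR3 (Si001442m). The plants were wild type of the A10 genotype, a C4 grass. The 5 control plants grew at a day temperature of 28 °C and a night temperature of 20 °C throughout, as the labels and methods state, while the study's results section gives a slightly warmer control night. The 6 heat-stressed plants were moved at 2 weeks of age to a second chamber, with 42 °C days and 32 °C nights, and kept there for 2 weeks, so that all 11 plants were harvested at day 28. Each condition had its own chamber, so that temperature and chamber cannot be told apart. Each sample held fully expanded leaves of a plant, and leaf markers (psbA, the Rubisco large subunit, LHCB3 and phosphoenolpyruvate carboxylase) were counted in all 11 samples.

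Auxin (indole-3-acetic acid) acts by removing Aux/IAA repressors from the promoters of auxin-response genes. Many Aux/IAA genes are themselves induced by auxin, and their transcripts are therefore used as readouts of auxin response. IAA31 is an Aux/IAA protein. PIF3 is a basic helix-loop-helix transcription factor that binds phytochrome and, in Arabidopsis, promotes elongation growth in darkness, and here the study listed it among auxin-inducible markers. Part of a plant's auxin is held as conjugates with amino acids, which have little auxin activity of their own. IAR3 was identified in Arabidopsis as an amidohydrolase that releases free auxin from such conjugates, with alanine conjugates as a preferred substrate. In Arabidopsis it also cleaves conjugates of jasmonic acid, and the study listed IAR3 with jasmonate-inducible genes. In leaves of control and heat-stressed plants, the study measured no significant change in free auxin. It reported that auxin conjugates with aspartate and with alanine accumulated under heat. The study's panels of auxin degradation and of auxin-inducible markers kept only transcripts that changed significantly in these same plants. The directions below are therefore not independent evidence of an auxin response.

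Total counts per plant ranged from 34362084 to 54011056 in controls and from 34731849 to 47441261 under heat. The plastid transcript psbA took 61.8 to 69.6% of the counts in controls and 46.1 to 48.5% under heat. Levels are therefore given as CPM (counts scaled to a common library total) after scaling by trimmed mean of M values (TMM), whose factors were 0.576 to 0.796 in controls and 1.33 to 1.498 under heat. The share given to no transcript was taken over alignments that were counted, without a feature, ambiguous or not unique, and other reads were left out. It was largest in control plant 2, at 67.3%, against 30.3 to 46.5% in the other controls and 42.4 to 50.5% under heat. Control plant 2 had 62082757 alignments that were not unique, against 10008260 to 34865909 in the other controls and 15264553 to 27051539 under heat. Each member was counted in every plant, with at least 27 counts for IAR3, 59 for IAA31 and 85 for PIF3, and all 3 passed the filter that left 18065 transcripts to test. In a bulk leaf sample, fewer cells of a type and less RNA per cell cannot be told apart.

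The hydrolase IAR3 was the member that rose. Its level in control plants 1 to 5 was 1.88, 1.36, 1.52, 1.40 and 1.42 CPM, from 50, 27, 52, 49 and 48 counts. In heat-stressed plants 1 to 6 it was 6.39, 8.97, 7.37, 5.27, 7.46 and 6.28 CPM, from 425, 584, 443, 266, 383 and 325 counts. The lowest heat-stressed plant, plant 4, lay far above the highest control, plant 1, and the groups did not overlap. The mean went from 1.52 ± 0.212 CPM (SD, n = 5) to 6.96 ± 1.27 CPM (SD, n = 6). The log2 fold change was 2.20 (SE 0.16, adjusted p = 5.00e-08 by the quasi-likelihood test of edgeR with Benjamini-Hochberg adjustment over all transcripts tested), and 93.2% of the tested transcripts had a lower log2 fold change. The background is broad: 32.2% of the tested transcripts were called higher under heat by the same test, and in 23.5% every heat-stressed plant was above every control.

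Of the response transcripts, IAA31 had the larger fall. Its level in control plants 1 to 5 was 15.9, 16.4, 9.33, 9.13 and 11.6 CPM, from 421, 324, 320, 320 and 391 counts. In heat-stressed plants 1 to 6 it was 1.40, 1.20, 1.65, 2.10, 1.15 and 1.37 CPM, from 93, 78, 99, 106, 59 and 71 counts. Every heat-stressed plant was below every control, and the highest heat-stressed plant (plant 4) was well under the lowest control (plant 4). The mean went from 12.5 ± 3.48 CPM (SD, n = 5) to 1.48 ± 0.352 CPM (SD, n = 6), 8.40-fold lower. The log2 fold change was -3.07 (SE 0.20, edgeR adjusted p = 2.52e-08), and 1.62% of the tested transcripts had a lower log2 fold change. By the same test 30.9% of the transcripts were called lower, and in 21.4% every heat-stressed plant was below every control.

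PIF3 fell less. Control plants 1 to 5 had 5.69, 6.87, 6.21, 5.85 and 7.80 CPM, from 151, 136, 213, 205 and 263 counts. Heat-stressed plants 1 to 6 had 2.44, 1.31, 2.46, 1.92, 2.88 and 2.96 CPM, from 162, 85, 148, 97, 148 and 153 counts. The groups did not overlap, with heat-stressed plant 6 nearest to the controls and heat-stressed plant 2 farthest from them. The mean went from 6.48 ± 0.866 CPM (SD, n = 5) to 2.33 ± 0.623 CPM (SD, n = 6), with a log2 fold change of -1.48 (SE 0.19, edgeR adjusted p = 1.02e-05) that 8.80% of the tested transcripts fell below. Without the TMM factors, which moves the median transcript to a log2 fold change of 1.07, the PIF3 fall shrank to -0.43 (edgeR adjusted p = 0.0420). Heat-stressed plant 6 (3.95 CPM by library size alone) was then above control plant 1 (3.35 CPM), and the groups overlapped. Relative to the median transcript, PIF3 changed by -1.503 under either scaling.

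**Figure D1:**
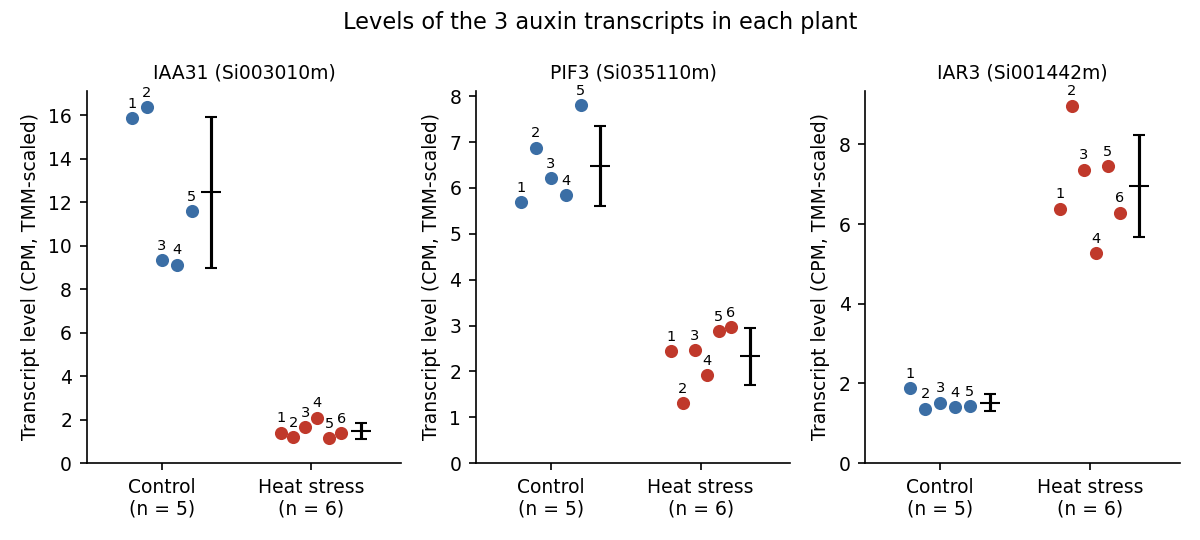
Level of each transcript (CPM after TMM scaling, linear axis from 0) in 5 control plants (blue) and 6 heat-stressed plants (red), with the plant number beside each point and the mean ± SD to the right. IAA31 and PIF3 were lower in every heat-stressed plant than in any control, and IAR3 was higher, at 5.27 to 8.97 CPM against 1.36 to 1.88 CPM.

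Among the control plants, IAA31 had the widest spread of the 3 transcripts. Its coefficient of variation was 28.0% in controls and 23.8% under heat, where counting error alone gives 5.33% and 11.1%. Among controls, plants 1 and 2 stood above plants 3, 4 and 5. These were also the plants with the lowest TMM factors, 0.589 and 0.576, and by library size alone their IAA31 levels were 9.33 and 9.43 CPM against 7.24 to 7.39 CPM in the other controls. Control plant 5, at 11.6 CPM, had a TMM factor of 0.6245, and the part of the scaling in the spread of IAA31 was not tested.

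PIF3 had a coefficient of variation of 26.8% under heat and 13.4% in controls, with counting errors of 8.90% and 7.34%. Heat-stressed plants 2 and 4 were low, and the other heat-stressed plants lay between 2.44 and 2.96 CPM. IAR3 had a coefficient of variation of 18.3% under heat, above the counting error of 5.09%. In controls it was 13.98%, no more than the 15.2% that counting error gives at 27 to 52 counts, so that the order of the control plants in IAR3 is not resolved at this depth.

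The inverse relation between the conditions can be read within each plant as the log2 ratio of the hydrolase to a response transcript, in which the scaling of a plant nearly cancels. In control plants 1 to 5 the log2 ratio of IAR3 to IAA31 was -3.04, -3.54, -2.59, -2.67 and -2.99. In heat-stressed plants 1 to 6 it was 2.16, 2.86, 2.13, 1.31, 2.65 and 2.16. In raw counts Si001442m had 0.0833 to 0.163 of the IAA31 count in controls and 2.51 to 7.49 times that count under heat. IAA31 thus had more counts than Si001442m in every control plant and fewer in every heat-stressed plant. With the second IAR3 transcript Si001453m added, that order did not hold in every control. The pair had 320, 202, 374, 426 and 391 counts in control plants 1 to 5, against 421, 324, 320, 320 and 391 for IAA31. Transcript lengths were not used, so that these are orders of counts and not of levels per length. The mean log2 ratio of IAR3 (Si001442m) to IAA31 went from -2.97 ± 0.38 (SD, n = 5) to 2.21 ± 0.54 (SD, n = 6). That was a shift of 5.18, with 3.90 between the nearest plants of the groups. No test is given for these ratios, since the transcripts were chosen together.

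The log2 ratio of IAR3 to PIF3 was -1.57, -2.30, -2.00, -2.03 and -2.42 in control plants 1 to 5. In heat-stressed plants 1 to 6 it was 1.38, 2.74, 1.56, 1.43, 1.36 and 1.08. Heat-stressed plant 2 had the highest IAR3 and the lowest PIF3 level of its group and stood apart, and without it the shift of 3.66 became 3.43. The groups were separated by 2.65. The response transcripts also changed relative to each other: the log2 ratio of PIF3 to IAA31 went from -0.90 ± 0.43 (SD, n = 5) to 0.62 ± 0.55 (SD, n = 6). That shift was 1.52, and the nearest plants, control 5 at -0.57 and heat-stressed 4 at -0.13, were 0.44 apart.

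Within the conditions, an inverse relation was not shown. The conditions form separate clusters, so that no correlation of the uncentred levels over all 11 plants is given, and none is given for the 5 controls alone. Among the 6 heat-stressed plants, the log2 levels of IAR3 and IAA31 had a Pearson's r of -0.75 (2-sided exact permutation p = 0.0806 over 720 pairings, 0.242 after adjustment over the 3 pairs) and a Spearman's rho of -0.71 (exact permutation p = 0.136, adjusted 0.408). Without plants 2 and 4, which had the highest and the lowest IAR3 and so set its range, r was -0.08. Without plant 4 alone it was -0.41, and without plant 2 alone -0.71. IAR3 and PIF3 had an r of -0.38 (exact permutation p = 0.457, adjusted 0.685) and a rho of -0.20 (exact permutation p = 0.714, adjusted 0.714). Without plants 2 and 4 r was -0.07. Without plant 2 alone it turned to 0.69, and without plant 4 alone it was -0.82. IAA31 and PIF3 had an r of -0.06 (exact permutation p = 0.932, adjusted 0.932) and a rho of -0.26 (exact permutation p = 0.658, adjusted 0.714), and without plants 4 and 5 r was 0.67. The smallest p that 6 plants allow for rho is 0.00278. With each condition's mean subtracted, r over the 11 plants was -0.27 for IAR3 with IAA31, -0.41 for IAR3 with PIF3 and -0.0079 for IAA31 with PIF3, given as a description with no test.

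Under heat, plant 4 had the lowest IAR3, the highest IAA31 and the second lowest PIF3. Plant 2 had the highest IAR3, the lowest PIF3 and the second lowest IAA31, after plant 5. Among controls, plants 1 and 2 had the highest IAA31, and plant 1 also had the lowest PIF3.

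**Figure D2:**
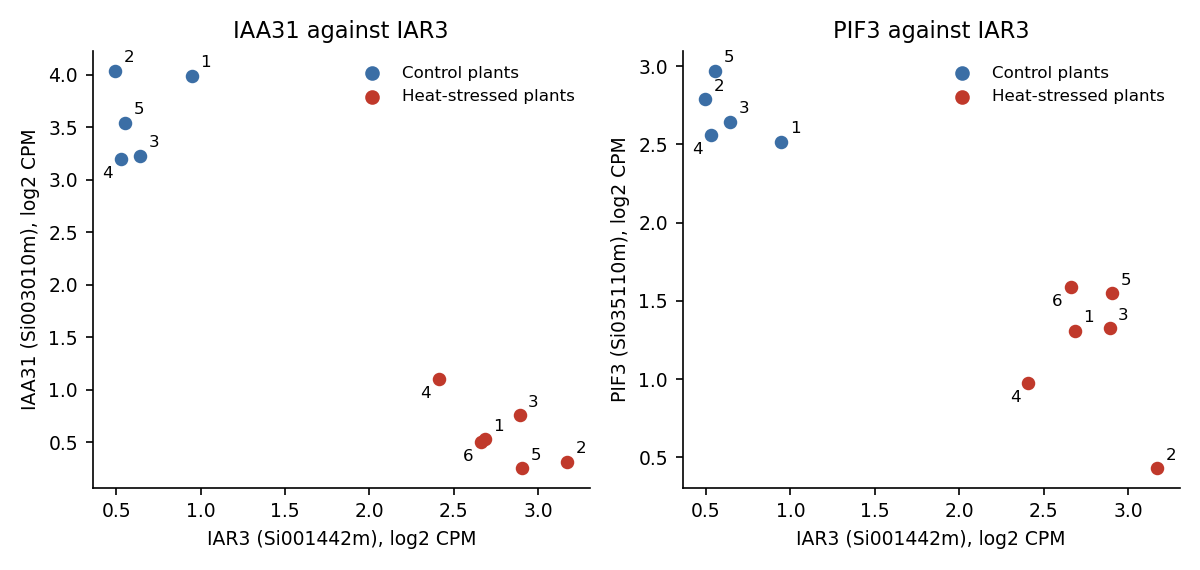
Log2 CPM of IAA31 (left) and PIF3 (right) against log2 CPM of IAR3 in each plant, with controls in blue, heat-stressed plants in red and plant numbers beside the points. The conditions form separate groups at opposite corners, and among the 6 heat-stressed plants r was -0.75 for IAA31 and -0.38 for PIF3, against -0.08 and -0.07 without plants 2 and 4.

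A second transcript that the study also names IAR3, Si001453m, did not pass the test. Its level was 10.2, 8.84, 9.39, 10.8 and 10.2 CPM in control plants 1 to 5 and 10.2, 9.43, 11.2, 8.62, 10.4 and 9.28 CPM in heat-stressed plants 1 to 6. The groups overlapped throughout, with means of 9.86 ± 0.748 CPM (SD, n = 5) and 9.86 ± 0.917 CPM (SD, n = 6). The log2 fold change was -0.0022 (SE 0.093, edgeR adjusted p = 0.985, 95% interval -0.21 to 0.21), and under scaling by library size alone it was 1.04, close to the median transcript. The identity of the pair in sequence was not examined here. Reads that aligned to more than 1 place were not counted, so that the split between near-identical copies would be uncertain.

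The counts of IAR3 thus moved toward Si001442m. Its share of the counts of both IAR3 transcripts, in which the scaling of a plant cancels, was 15.6, 13.4, 13.9, 11.5 and 12.3% in control plants 1 to 5. Under heat it was 38.4, 48.7, 39.8, 37.9, 41.7 and 40.4% in plants 1 to 6. Control plant 2, with the fewest counts (27 of 202), had an exact 95% binomial interval of 8.997 to 18.8%, and the lowest heat-stressed plant, plant 4 (266 of 701), one of 34.3 to 41.7%. These intervals cover counting error only. The mean share went from 13.3 ± 1.58% (SD, n = 5) to 41.2 ± 3.96% (SD, n = 6). The groups did not overlap, and the means differed by 27.8 percentage points. The share restates the rise of Si001442m beside Si001453m and was computed after the values were seen, so that no test of it is given. Heat-stressed plant 2, whose Si001442m level also enters the ratio of IAR3 to PIF3, again stood apart. Without it the difference was 26.3 points.

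**Figure D3:**
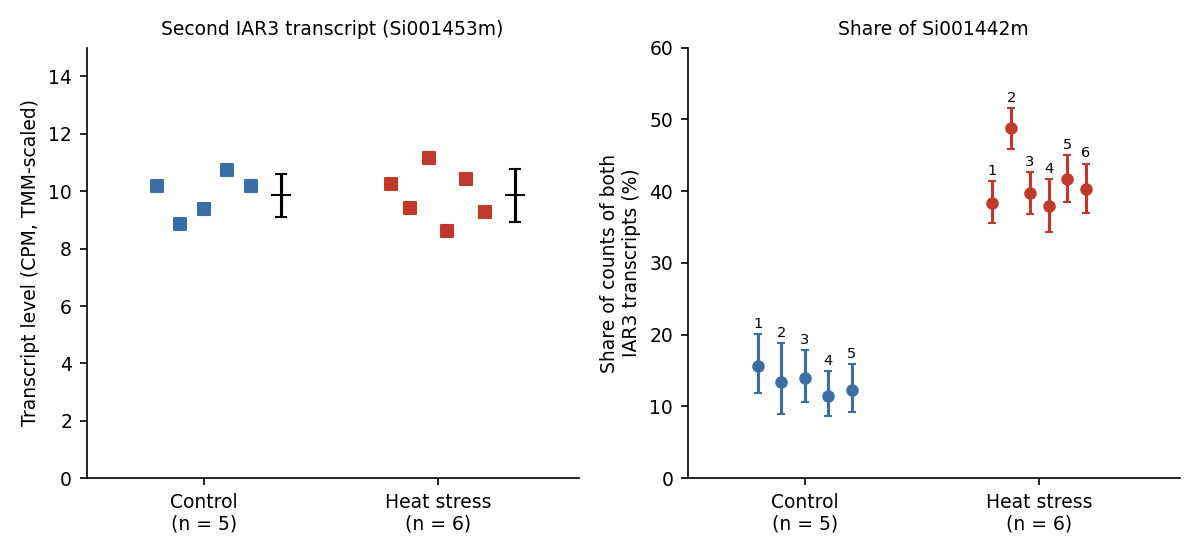
Left, level of the second IAR3 transcript Si001453m (CPM after TMM scaling) in each control (blue) and heat-stressed (red) plant in the order of plant number, with mean ± SD. Right, share of Si001442m among the counts of both IAR3 transcripts (percent, with exact 95% binomial intervals), which was 11.5 to 15.6% in controls and 37.9 to 48.7% under heat, while Si001453m was between 8.62 and 11.2 CPM in all 11 plants.

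Beyond the members, short lists of hormone and growth transcripts from the study's supplement were counted, while the rest of its hormone panels was not used here. Over all 18065 tested transcripts 63.1% were called in either direction, with a median log2 fold change of 0.024. The study's panel of jasmonate-inducible transcripts holds 8 besides the pair named IAR3, of which 4 rose, 2 fell and 2 did not pass, with a median log2 fold change of 0.48. Of the 3 transcripts in it for tryptophan synthesis, which supplies the precursor of auxin, 2 rose and 1 fell, with a median log2 fold change of 0.68. TSB2 (Si013676m), a beta subunit of tryptophan synthase, rose from 29.0 ± 3.45 CPM (SD, n = 5) to 80.2 ± 17.5 CPM (SD, n = 6), a log2 fold change of 1.47 (SE 0.15, edgeR adjusted p = 1.08e-06). ASA1 (Si034864m), the alpha subunit of anthranilate synthase, the first enzyme from chorismate to tryptophan, rose by 0.68 (SE 0.15, edgeR adjusted p = 0.00121). ASB1 (Si036997m), the beta subunit of the same enzyme, fell by 0.65 (SE 0.13, edgeR adjusted p = 7.07e-04). Under scaling by library size alone its log2 fold change was 0.39, above 0 but below the median transcript at 1.07.

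Among the other 5 transcripts of that panel, 2 rose, 1 fell and 2 did not pass, with a median log2 fold change of 0.47. CLH1 (Si030252m), a chlorophyllase, had the largest rise, 4.25 (SE 0.60, edgeR adjusted p = 3.01e-05), from 0.148 to 2.48 CPM in controls (median 0.303) to 6.09 to 20.7 CPM under heat (median 14.7). Control plant 3 alone was at 2.48 CPM, the next control at 0.339 CPM, and without that plant the log2 fold change was 5.81. A transcript the study names Str-like (Si030337m) was called lower, as ASB1 was, at -0.74 (SE 0.24, edgeR adjusted p = 0.0154). Its value was 0.28 by library size alone, where the median transcript was at 1.07.

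Of 5 transcripts for JAZ1, a repressor of jasmonate responses, 4 fell and 1 did not pass, with a median log2 fold change of -1.75. Si037702m fell most, with a log2 fold change of -4.02 (SE 0.38, edgeR adjusted p = 7.16e-07), from 46.7 ± 26.8 CPM (SD, n = 5) to 2.87 ± 0.903 CPM (SD, n = 6), and was still lower (-2.98) by library size alone. Si037592m, at -1.19, lost its call without control plant 2 (-0.93), control plant 4 (-0.93) or heat-stressed plant 1 (-1.06), and by library size alone (-0.16). Si037350m, at -0.27, had the opposite sign by library size alone (0.74, with the median transcript at 1.07). It passed the test without control plant 1 (-0.39).

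Of 6 transcripts for the growth regulators GAI, BRI1 and BIN2, 4 fell, 1 rose and 1 did not pass, with a median log2 fold change of -0.66. By library size alone, however, the GAI and BIN2 values were all above 0, though below the median transcript, which that scaling puts at 1.07. The study lists GAI and BIN2 as negative regulators, of gibberellin response and brassinosteroid signalling, and BRI1 as a positive one. The count and median thus have no single direction for growth, and the study's positive gibberellin regulators were not counted. BRI1 (Si000117m), the brassinosteroid receptor, rose by 0.62 (SE 0.17, edgeR adjusted p = 0.00606). BIN2 (Si017348m), a kinase that restrains brassinosteroid signalling, had the largest fall, -1.03 (SE 0.092, edgeR adjusted p = 4.01e-07), but all 3 BIN2 transcripts were at 0.01 to 0.44 by library size alone. Of the 4 transcripts that the study lists as salicylic acid-dependent regulators of cell expansion, the 3 listed as promoters fell. Their median log2 fold change was -2.87, and they also fell by library size alone. In XTH22 Si007018m the groups overlapped, with 4 to 66 counts in controls and 1 to 15 under heat. The listed repressor, WAK1 (Si024768m), a wall-associated kinase added after the values were seen, rose from 2.75 ± 0.485 CPM (SD, n = 5) to 5.43 ± 0.760 CPM (SD, n = 6), a log2 fold change of 0.98 (SE 0.14, edgeR adjusted p = 3.86e-05). XTH22 (Si014232m), an enzyme that remodels cell wall xyloglucan, went from 19.9 ± 4.94 CPM (SD, n = 5) to 2.37 ± 0.489 CPM (SD, n = 6). Its log2 fold change of -3.07 (SE 0.18, edgeR adjusted p = 1.11e-08) was close to that of IAA31. These lists were taken up with earlier results of these plants known, and their directions are not independent evidence.

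**Figure D4:**
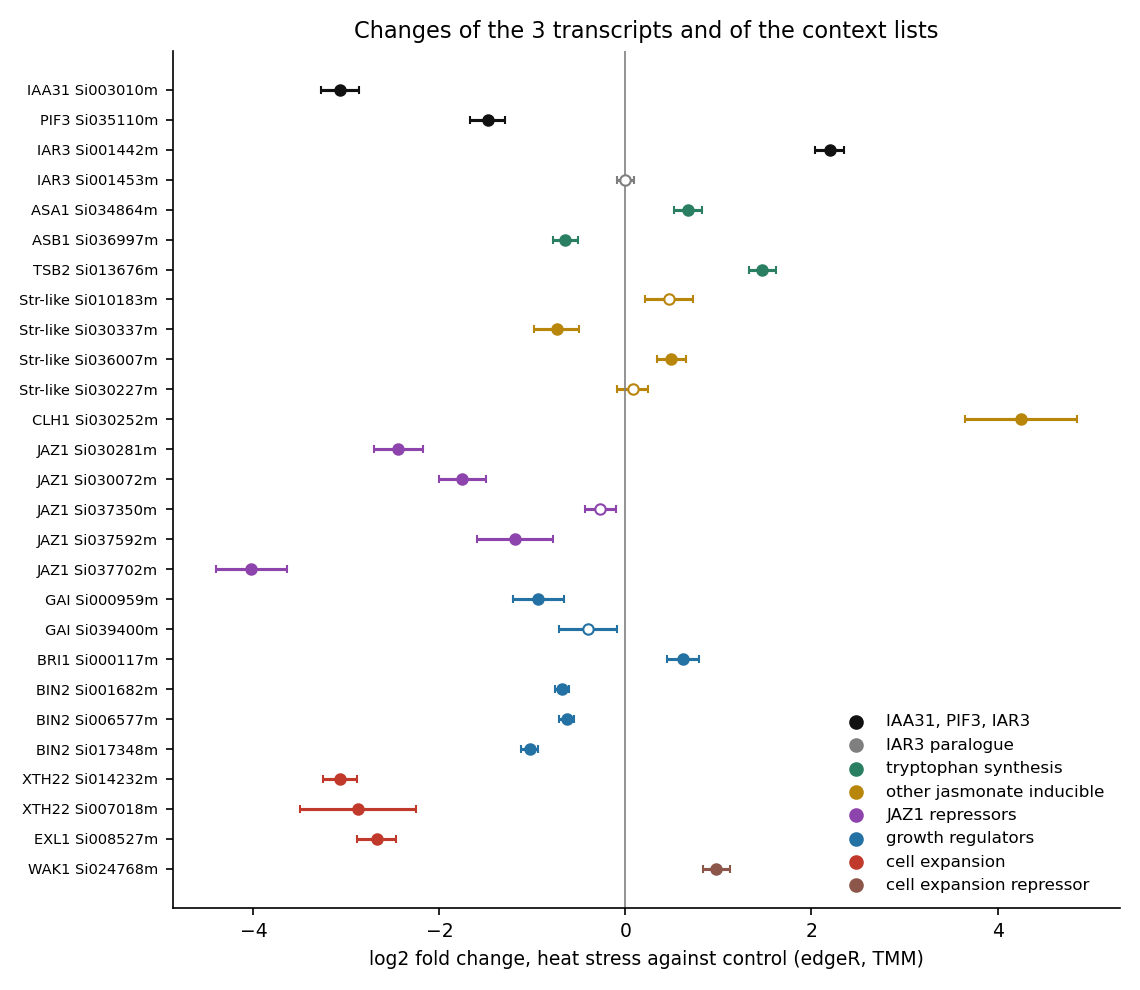
Log2 fold change under heat stress against control (edgeR after TMM scaling, bars ± SE, n = 6 and n = 5 plants) of the 3 transcripts (black) and of each transcript of the context lists (colours), with filled points for an adjusted p under 0.05 and open points for the rest. IAR3 Si001442m lies at 2.20 and IAR3 Si001453m near 0, and IAA31 and XTH22 Si014232m both lie at -3.07.

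To find transcripts that varied like the members beyond the condition itself, each condition's mean was subtracted from the log2 levels, and 10656 transcripts, those whose mean reached 1 CPM in each condition, were ranked by Pearson's r over the 11 plants. Names from the study's supplement were known for 246 of these, most of them photosynthesis transcripts, so that the named neighbours are drawn from a narrow set. For PIF3 they were PSAG (Si031456m, a photosystem I subunit) and PSBQ (Si031101m, an oxygen-evolving complex protein), both with r = 0.93 and ranked 6 and 8 among all transcripts. For IAA31 they were NDHF (Si020872m, r = 0.80, rank 33) and PETB (Si024707m, r = 0.75, rank 72), subunits of the NDH and cytochrome b6f complexes. For IAR3 they were PGK (Si006583m, phosphoglycerate kinase, r = 0.77, rank 29) and a transcript annotated PSBA (Si012451m, r = 0.68, rank 92). These values are descriptions, and in each plant all transcripts share its library and scaling factor. With 10656 transcripts ranked over 11 plants, high r also arise by chance, and how high was not tested. For IAR3, the control levels that enter r vary no more than counting error gives. The highest r of any transcript was 0.96 for PIF3, 0.91 for IAA31 and 0.88 for IAR3. PGK had the same direction as IAR3 under heat, with a log2 fold change of 2.02 (SE 0.12, edgeR adjusted p = 1.40e-08), whereas the transcript annotated PSBA had the opposite one, -1.75 (SE 0.19, edgeR adjusted p = 3.15e-06).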

How the data were processed

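Leaf RNA-seq counts were used for 11 plants, 5 control and 6 heat-stressed. According to the study's methods and the labels, the authors removed ribosomal RNA, built libraries with a TruSeq kit that the methods call strand specific, trimmed reads with Trimmomatic, aligned them with TopHat2, with 2 mismatches allowed, to the genome of *S. italica*, a related species, and used HTSeq to count alignments on exons. The strand setting of HTSeq is not given in the sources used here. The deposited values are raw counts per transcript, in separate tables for read pairs and single reads of each plant, and both were added. The 5 HTSeq summary lines of each table stayed out of totals and tests. Sum columns present in 10 tables were checked and equalled these sums.

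Transcripts were filtered with filterByExpr and tested with edgeR 4.0.16 in R 4.3.3 (TMM, quasi-likelihood F test, Benjamini-Hochberg adjustment, threshold 0.05). SEs were derived from the F statistic as |log2 fold change|/sqrt(F), and 95% intervals used the residual degrees of freedom of the plants. Log2 CPM used a prior count of 2. Alternatives included DESeq2 1.42.0, and the procedure was tested on simulated data. The simulation changed few transcripts, equally in each direction, so that it could not test the TMM scaling for data with changes as broad as these. Figures were drawn with matplotlib 3.10.9. The members and context lists were chosen with earlier results of these data known. Named transcripts were the members, the second IAR3, the tryptophan synthesis transcripts, the largest called rise and fall of each other list, and the 2 named transcripts most like each member. Others were named where a setting changed their call, and WAK1 and Si007018m after their values were seen. No auxin list by gene description was used. Genome positions and sequences were not used here.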

Additional observations from a re-analysis of the deposited data

Results flagged for a closer look

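Among 62 groups of plants looked at, of which chance flags about 1 in 20, 3 had a plant whose gap to its nearest neighbour took an unusually large part of the group's range. That number is close to the chance rate. In CLH1 (Si030252m), control plant 3 was at 2.48 CPM and the next control at 0.339 CPM, a gap of 0.918 of the range. In the log2 ratio of IAR3 to PIF3, heat-stressed plant 2 was at 2.74 and the next at 1.56, a gap of 0.706 of the range. In the share of Si001442m among the counts of both IAR3 transcripts, heat-stressed plant 2 was at 48.7% and the next at 41.7%, a gap of 0.651 of the range. This share and the ratio both hold the IAR3 level of that plant.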

How the results depend on the processing

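IAA31, PIF3 and IAR3 kept their direction and their call under all 20 alternatives, of which 11 left out 1 plant each. With a plant left out, the log2 fold change was -3.17 to -2.96 for IAA31, -1.53 to -1.32 for PIF3 and 2.15 to 2.30 for IAR3. Scaling by library size alone gave -1.97, -0.43 and 3.25, and called 13216 transcripts higher and 1385 lower (90.5% of calls higher, against 51.0%). Relative to its median of 1.07 the members were at -3.04, -1.503 and 2.18. Its values for context transcripts with the opposite sign were 1.04 for Si001453m, 0.39 for ASB1, 0.28 for Str-like Si030337m, 0.74 for JAZ1 Si037350m, 0.088 and 0.61 for GAI, and 0.38, 0.44 and 0.012 for BIN2. All of these were below the median of 1.07. Si001453m lay around 0 and so changed sign easily: it was 0.012 with DESeq2's size factors, 0.058 with upper-quartile factors, 0.032 in DESeq2's Wald test, 0.063 with no filter, 0.22 with single reads only, 0.013 with the replicate block and -0.044 to 0.068 with a plant left out. Single reads only, with 10434 transcripts tested, called 3004 higher and 2792 lower, moved the shift of the log2 ratio of IAR3 to IAA31 to 5.60 and that of PIF3 to IAA31 to 2.09, and gave r = 0.75 between IAA31 and PIF3 under heat. With a heat-stressed plant left out that r was -0.90 to 0.27, that of IAR3 with PIF3 -0.82 to 0.69 and that of IAR3 with IAA31 -0.85 to -0.41. The shifts of the ratios with a plant left out were 5.03 to 5.36 for IAR3 to IAA31, 3.43 to 3.78 for IAR3 to PIF3 and 1.38 to 1.67 for PIF3 to IAA31. The share of Si001442m, whose alternatives were added after seeing the data, differed by 26.3 to 29.7 points in each of them, and WAK1, also added then, kept its call in all 20. Plant numbers are shared between conditions, and no label says that they pair the plants. Same-numbered plants deviated together with r of -0.02 to 0.15 over the 5 numbers. The mean was 0.042, against -0.0088 for plants of different numbers, and so few values cannot settle whether the plants are paired. With the plant number as a replicate block, 5575 transcripts were called higher and 5350 lower, against 5818 and 5583, the 3 members were still called, and GAI Si000959m (-0.79, against -0.94) was not. With 27 to 52 counts per control plant, differences in IAR3 among controls are within counting error. The cause of these changes was not tested.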
